A study of Mus musculus with 8 samples.

Results

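The genes described here are Dmc1, Meiob, Hfm1, Msh4, Msh5, Rnf212 and Mlh3, which encode proteins that act after meiotic DNA breaks have formed. They were chosen by name, as 7 of the 54087 gene entries in the deposited count tables, and each had counts in all 8 libraries and passed the filter on low counts. Breaks made in early meiotic prophase are resected to single-stranded DNA, on which DMC1, the meiosis-specific recombinase, forms filaments that invade the homologous chromosome, while MEIOB and its partner SPATA22 bind the single strands together with RPA. HFM1, a DNA helicase, and the MSH4 and MSH5 heterodimer act on the joint molecules that follow. RNF212, a RING-domain protein, marks the sites that will become crossovers, and MLH3 belongs to the nuclease complex found at crossovers in pachytene spermatocytes. In the mouse testis these genes are read in spermatocytes, so their level in whole tissue also depends on how many spermatocytes it holds. What other testis cells add to these levels was not measured.

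RNA was measured in whole testes of male C57BL/6 mice at 19 and 25 days post partum (dpp). The mice were homozygous mutant (Dnmt3A KO/KO, called KO) or homozygous wildtype (Dnmt3A WT/WT, called WT) for Dnmt3a, the gene of a methyltransferase that sets DNA methylation in germ cells. There were 2 libraries in each of the 4 groups, KO and WT at 19 dpp and KO and WT at 25 dpp. The labels give neither the part of Dnmt3a deleted nor whether the 2 libraries of a group came from separate animals, so p-values measure the spread between these libraries, which may be technical.

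Gene totals were between 22515812 and 50445334 counts per library, so that 3 counts equal 0.0812 to 0.126 CPM (gene counts scaled to library size with TMM factors). Dnmt3a itself read between 112 and 114 CPM in KO and between 141 and 147 CPM in WT at 19 dpp, and between 67.2 and 76.9 CPM in KO and between 48.7 and 70.0 CPM in WT at 25 dpp. It did not pass the test at either age, and with the deleted part unknown these counts do not check the genotype. The summed level of 18 early meiotic prophase markers was 492 to 890 CPM in KO and 2315 to 2754 CPM in WT at 19 dpp, and 2463 to 3328 CPM in KO and 3773 to 3862 CPM in WT at 25 dpp. That of 20 Sertoli cell markers was 9429 to 10546 CPM in KO and 5003 to 5814 CPM in WT at 19 dpp, and 7268 to 8304 CPM in KO and 2557 to 3240 CPM in WT at 25 dpp. That of 14 markers of pachytene to secondary spermatocytes was 149 to 191 CPM in KO and 863 to 2125 CPM in WT at 19 dpp, and 614 to 1188 CPM in KO and 8814 to 11746 CPM in WT at 25 dpp. The sum of 12 round spermatid markers reached 132 CPM at most in KO at 25 dpp, against 1594 to 2817 CPM in WT, and the elongating spermatid markers Prm1, Prm2 and Tnp2 had no counts in either KO library of that age. The sum of 10 elongating spermatid markers differed between the WT libraries of 25 dpp, at 2312 and 6784 CPM.

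On GRCm38 (mm10), by the GENCODE M21 annotation, Dmc1 lies at chr15:79561497-79605109, Hfm1 at chr5:106840192-106926321, Msh4 at chr3:153857149-153906138, Msh5 at chr17:35028605-35046745, Rnf212 at chr5:108729290-108774982 and Mlh3 at chr12:85234520-85270599, all on the minus strand. Meiob lies at chr17:24804289-24839788 on the plus strand. No other protein-coding gene overlaps any of them. The antisense gene 1700047L14Rik overlaps 5073 bases of the Rnf212 span, and how the counting used strand is not given in the sources used here.

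RefSeq promoter windows (GRCm38.p6, 250 bases before to 50 after the gene start) were at hand for 6 of the 7 genes, all but Meiob. Of the 4 windows below, those of Dmc1 and Mlh3 are shown because these genes went opposite ways in KO at 25 dpp. Those of Hfm1 and Msh5 are shown for their matches to a motif of the meiotic activators STRA8 and MEIOSIN. Each window is written 5′ to 3′ in the direction of the gene. Capitals mark matches, on either strand, to CCTCAG (STRA8 and MEIOSIN), CACGTG (the E-box bound by MGA and MAX), GCGGGA (an E2F site), TAACNG (MYB) or TGACGT (a CRE core). No marked matches overlap. The windows are, in turn, chr15:79605060-79605359, chr5:106925841-106926140, chr17:35046573-35046872 and chr12:85270550-85270849, each on the minus strand.
Dmc1: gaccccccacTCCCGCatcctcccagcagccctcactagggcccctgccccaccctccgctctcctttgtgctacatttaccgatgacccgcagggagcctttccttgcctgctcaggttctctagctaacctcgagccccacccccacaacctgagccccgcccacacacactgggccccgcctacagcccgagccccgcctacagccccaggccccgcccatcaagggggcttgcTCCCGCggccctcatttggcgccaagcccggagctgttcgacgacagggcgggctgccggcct
Hfm1: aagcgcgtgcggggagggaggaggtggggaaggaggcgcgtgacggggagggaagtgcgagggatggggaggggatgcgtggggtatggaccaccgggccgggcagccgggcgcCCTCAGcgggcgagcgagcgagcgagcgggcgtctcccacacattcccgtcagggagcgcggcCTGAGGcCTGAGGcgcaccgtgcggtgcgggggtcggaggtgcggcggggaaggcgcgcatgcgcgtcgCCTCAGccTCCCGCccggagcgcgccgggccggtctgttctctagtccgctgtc
Msh5: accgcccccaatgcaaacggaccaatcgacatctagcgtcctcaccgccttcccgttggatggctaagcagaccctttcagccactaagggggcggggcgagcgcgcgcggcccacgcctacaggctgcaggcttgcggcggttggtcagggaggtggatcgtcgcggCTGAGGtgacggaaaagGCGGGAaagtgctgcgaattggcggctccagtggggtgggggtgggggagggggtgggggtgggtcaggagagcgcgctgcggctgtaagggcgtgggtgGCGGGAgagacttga
Mlh3: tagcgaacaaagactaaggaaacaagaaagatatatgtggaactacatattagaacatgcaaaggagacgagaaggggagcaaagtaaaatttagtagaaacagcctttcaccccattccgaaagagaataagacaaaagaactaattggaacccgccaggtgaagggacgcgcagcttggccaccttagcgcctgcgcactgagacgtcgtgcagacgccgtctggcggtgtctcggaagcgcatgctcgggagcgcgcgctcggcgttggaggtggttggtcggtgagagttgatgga

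The Hfm1 window held 4 matches to CCTCAG and 41 CpG dinucleotides, and that of Msh5 held 1 match and 27 CpGs. CCTCAG stood in 26.6% of all 27025 promoter windows, so its presence alone does not set these genes apart. All 7 genes were lower in KO at 19 dpp with TMM scaling, and the windows of Dmc1, Msh4, Rnf212 and Mlh3 held no CCTCAG. A link between motif and level was not tested. The Dmc1 window held no CCTCAG, 2 matches to GCGGGA, which stood in 20.0% of windows, and 18 CpGs. Msh5 also held 2 matches to GCGGGA and Hfm1 held 1. The Mlh3 window held none of the 5 motifs and 22 CpGs. It is the entry listed before the other of 2 Mlh3 windows. Of those not printed, the Rnf212 window held 1 match to CACGTG (7.24% of windows), 1 to GCGGGA and 22 CpGs, and that of Msh4 held 2 matches to TAACNG (23.2% of windows) and 6 CpGs. The windows of Msh4 and Hfm1 lie wholly inside the gene spans given above. No window held TGACGT, which 7.64% of all windows do. The median window held 7 CpGs, with quartiles at 3 and 21.

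**Figure D1:**
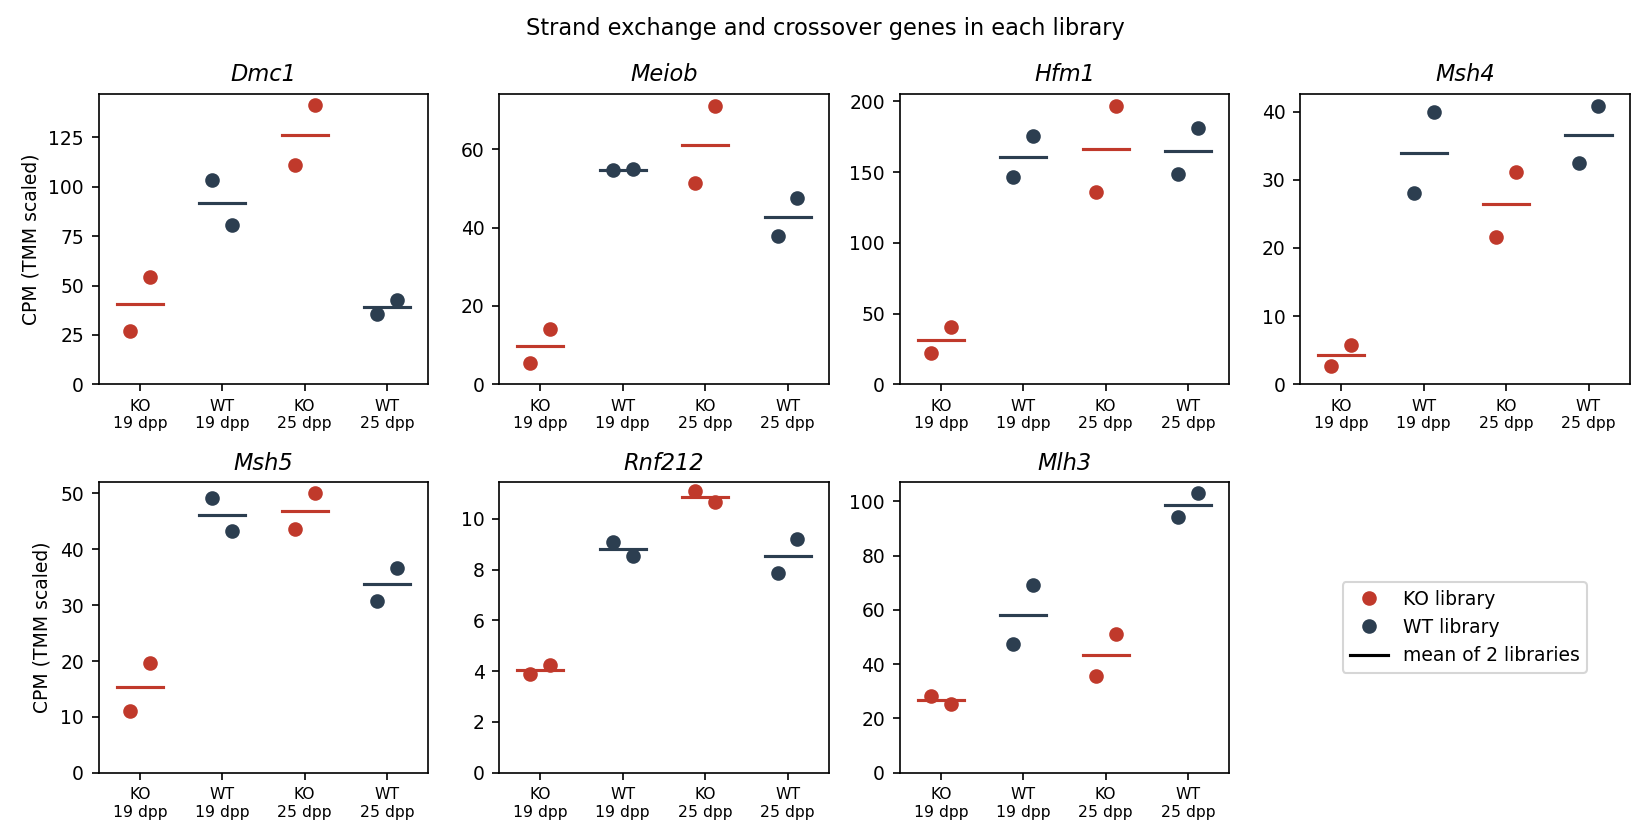
CPM after TMM scaling (y axis) of the 7 genes in each library, with KO in red and WT in dark blue; lines are means of 2 libraries. At 19 dpp both KO libraries lie below both WT libraries in every panel in CPM (not so for 4 genes relative to early prophase markers), and at 25 dpp KO lies above WT for Dmc1 and below WT for Mlh3.

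At 19 dpp all 7 genes were lower in KO than in WT with TMM scaling, though 4 of them lay above WT when counts were scaled to early prophase markers. The largest differences were in Msh4, Meiob and Hfm1, at 5.13-fold to 7.87-fold lower, and the smallest in Rnf212, Mlh3 and Dmc1, at 2.17-fold to 2.25-fold. Dmc1, which acts in strand exchange, and Mlh3, which acts at the end of the pathway, had similar point estimates, and those of Meiob, Hfm1, Msh4 and Msh5 were larger. Differences between genes were not tested. Early prophase markers moved with these genes: 15 of the 18 fell in KO, none rose, and their median log2 change was -1.75. Of all genes tested, 13.2% were lower and 8.8% higher in KO at that age. Fewer spermatocytes in the tissue and less RNA per spermatocyte cannot be told apart in whole testis.

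The recombinase gene Dmc1 had 27.1 and 54.4 CPM in KO, against 103 and 80.8 CPM in WT. Meiob, for single-strand binding, had 5.45 and 14.2 CPM in KO, against 54.6 and 55.0 CPM in WT. In both genes the KO libraries differed from each other by more than 2-fold, and replicate 1 was the lower. Their means were 40.8 ± 19.3 CPM in KO and 92.0 ± 15.9 CPM in WT for Dmc1, and 9.82 ± 6.19 CPM in KO and 54.8 ± 0.228 CPM in WT for Meiob (SD, n = 2 each). The helicase gene Hfm1 had 22.1 and 40.5 CPM in KO, against 146 and 176 CPM in WT. Of the heterodimer genes, Msh4 had 2.73 and 5.82 CPM in KO, from 65 and 205 counts, against 28.04 and 39.9 CPM in WT. Msh5 had 11.1 and 19.6 CPM in KO, against 49.1 and 43.2 CPM in WT. Both KO libraries lay below both WT libraries for these genes, and replicate 1 of KO was again the lower.

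Rnf212, the crossover marker, had 3.90 and 4.23 CPM in KO, against 9.09 and 8.54 CPM in WT. Mlh3, the crossover nuclease gene, had 28.2 and 25.4 CPM in KO, against 47.4 and 69.1 CPM in WT. The KO libraries of these 2 genes were close to each other, unlike those of the other 5. The groups did not overlap for any of the 7 genes, where KO lay below WT without overlap for 33.8% of all 23353 genes tested, above it for 32.7% and either way for 66.4%.

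In edgeR's quasi-likelihood test with Benjamini-Hochberg adjustment, 7 of 7 genes were lower in KO, where 13.2% of all genes tested were lower, 8.8% higher and 22% either. The log2 changes were -2.98 (SE 0.398, adjusted p = 0.00758) for Msh4, -2.47 (SE 0.427, adjusted p = 0.0116) for Meiob and -2.36 (SE 0.320, adjusted p = 0.00768) for Hfm1. Msh5 changed by -1.59 (SE 0.269, adjusted p = 0.0096 in edgeR), which is 3.01-fold lower. Dmc1 changed by -1.17 (SE 0.324, adjusted p = 0.0417 in edgeR), Mlh3 by -1.12 (SE 0.234, adjusted p = 0.0161) and Rnf212 by -1.11 (SE 0.221, adjusted p = 0.0138). The median over the 7 genes was -1.59, against 0.00 over all genes tested.

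The calls at 19 dpp rest on KO replicate 1: without it 0 of the 7 genes passed in edgeR at adjusted p of 0.082 to 0.166, although all 7 kept an unadjusted p under 0.05 and log2 changes of -2.54 to -0.75. No gene of the table passed without that library, and 5256 had an unadjusted p under 0.05. Without WT replicate 2, 4 of the 7 passed. The direction depends on the scaling: relative to the early prophase markers, Msh4 (log2 change -1.13), Meiob (-0.68) and Hfm1 (-0.49) stayed below WT, whereas Msh5 (0.27), Dmc1 (0.65), Rnf212 (0.84) and Mlh3 (0.91) lay above it. That scaling shifted the median of all genes to 1.90, and in edgeR only Msh4 (adjusted p = 0.0304) and Mlh3 (adjusted p = 0.0451) passed. Relative to the Sertoli markers all 7 passed as lower, with a median of -2.45 where all genes had a median of -0.85.

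At 25 dpp the genes no longer moved together. Dmc1 was 3.23-fold higher in KO than in WT and Mlh3 2.28-fold lower, and the other 5 genes did not pass the test. Thus the strand exchange gene and the gene of the crossover nuclease differed from WT in opposite directions. Of the early prophase markers, 4 of 18 were higher and 4 lower in KO at this age, and all 14 pachytene to secondary spermatocyte markers were lower. Markers of differentiating spermatogonia were higher in 8 of 9 cases and lower in 1 (median log2 change 1.24), 18 of 20 Sertoli markers were higher, and 4 of 8 Leydig cell markers were lower. Of all genes tested, 26.1% were higher and 37.4% lower at this age, or 63.5% either way. Calls either way were thus no more frequent among early prophase or Leydig cell markers than among all genes. The part of these cell types in the levels was not tested beyond the scalings given below.

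Dmc1 had 111 and 142 CPM in KO, against 35.7 and 42.6 CPM in WT at 25 dpp (126 ± 21.4 and 39.2 ± 4.86 CPM, SD, n = 2 each). Its log2 change was 1.69 (SE 0.328, adjusted p = 0.00366 in edgeR). Mlh3 had 35.6 and 51.0 CPM in KO, against 94.1 and 103 CPM in WT, or 43.3 ± 10.9 and 98.6 ± 6.48 CPM (SD, n = 2 each). Its log2 change was -1.19 (SE 0.233, adjusted p = 0.00327 in edgeR). Neither pair of groups overlapped, and the gap was wider than the spread within either group.

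Meiob had 51.5 and 71.0 CPM in KO, against 37.8 and 47.6 CPM in WT, a log2 change of 0.52 (95% interval -0.43 to 1.47, adjusted p = 0.291 in edgeR). Hfm1 had 136 and 197 CPM in KO, against 149 and 181 CPM in WT, and the WT libraries lay within the range of the KO libraries. Its log2 change was 0.01 (95% interval -0.70 to 0.73, adjusted p = 0.975 in edgeR). Msh4 had 21.7 and 31.1 CPM in KO, against 32.4 and 40.7 CPM in WT, a log2 change of -0.47 (95% interval -1.32 to 0.38, adjusted p = 0.286 in edgeR). Its partner Msh5 had 43.6 and 50.1 CPM in KO, against 30.7 and 36.7 CPM in WT, a log2 change of 0.48 (95% interval -0.13 to 1.08, adjusted p = 0.146 in edgeR). Rnf212 had 11.1 and 10.7 CPM in KO, against 7.86 and 9.19 CPM in WT, a log2 change of 0.35 (95% interval -0.15 to 0.85, adjusted p = 0.187 in edgeR). These intervals still allow changes of more than 1.5-fold in at least 1 direction, so a missed threshold does not show equal levels.

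In all, 1 of 7 genes was higher and 1 lower in KO at 25 dpp, where 26.1% of all genes tested were higher and 37.4% lower, or 63.5% either way. KO lay above WT without overlap for 4 of the 7 genes (38.5% of all genes) and below WT for 2 (46.1%), or 6 of 7 either way (84.6%). Dmc1 and Mlh3 passed in each fit that left out 1 library. Relative to the Sertoli markers, which shifted the median of all genes to -1.56, 5 of the 7 genes were lower in KO and none higher. In that scaling the log2 change of Dmc1 was 0.28 (adjusted p = 0.528 in edgeR) and that of Mlh3 -2.60 (adjusted p = 0.000626). Relative to the early prophase markers, Dmc1 changed by 2.09 (adjusted p = 7.06e-06 in edgeR) and Mlh3 by -0.80 (adjusted p = 0.101), with the median of all genes at 0.30. With total counts as the scaling, Msh5 and Rnf212 also passed as higher.

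**Figure D2:**
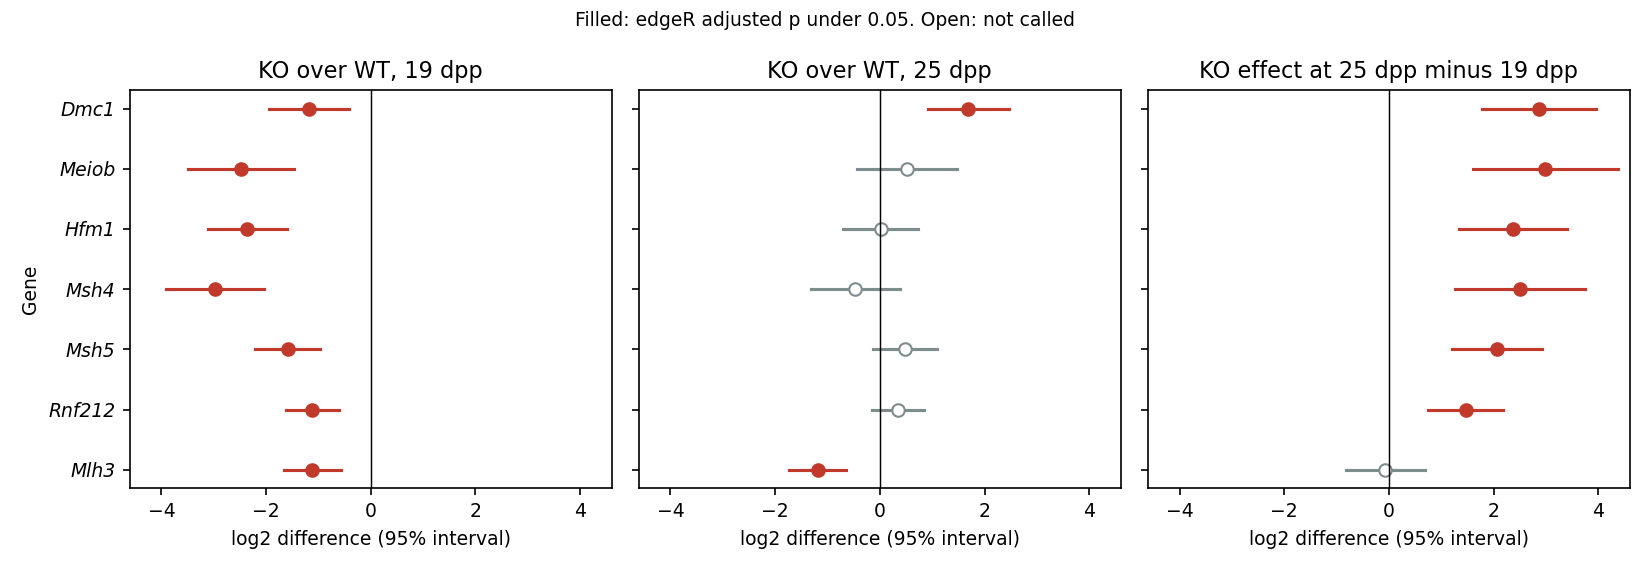
Log2 differences from edgeR (x axis) for KO over WT at 19 dpp, KO over WT at 25 dpp and the second minus the first, with 95% intervals. Filled points passed an adjusted p under 0.05: 7 genes at 19 dpp, Dmc1 and Mlh3 at 25 dpp, and all but Mlh3 in the difference; at 19 dpp the signs of Dmc1, Msh5, Rnf212 and Mlh3 turn when counts are scaled to early prophase markers.

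With TMM scaling the KO effect itself differed between the ages in 6 of the 7 genes, of which Rnf212 turned sign relative to early prophase markers. The term for that difference, the log2 change of KO over WT at 25 dpp minus that at 19 dpp, was 2.99 for Meiob (SE 0.582, adjusted p = 0.0184 in edgeR), 2.86 for Dmc1 (SE 0.461, adjusted p = 0.0104) and 2.50 for Msh4 (SE 0.528, adjusted p = 0.0211). It was 2.37 for Hfm1 (SE 0.435, adjusted p = 0.0147 in edgeR), 2.06 for Msh5 (SE 0.374, adjusted p = 0.0125) and 1.47 for Rnf212 (SE 0.309, adjusted p = 0.0197). For Mlh3 it was -0.07 (95% interval -0.83 to 0.69, adjusted p = 0.951 in edgeR): this gene was lower in KO by about the same log2 amount at both ages. Of all genes tested, 7.68% had a higher KO effect at 25 dpp and 11.4% a lower one, or 19.1% either.

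Leaving out 1 library left 2 to 6 of these 6 calls. There were 2 without KO replicate 2 of 25 dpp, and 3 each without KO replicate 1 or WT replicate 1 of that age. Dmc1 and Msh5 passed in every such fit. Relative to the Sertoli markers, with the median of all genes at -0.57, Dmc1 alone passed (2.30, adjusted p = 0.0435 in edgeR). Relative to the early prophase markers, with the median of all genes at -1.56, Dmc1 (1.44, adjusted p = 0.0389 in edgeR) and Meiob (1.60, adjusted p = 0.033) passed as higher and Mlh3 (-1.71, adjusted p = 0.0158) as lower, and Rnf212 was at -0.06.

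With age, 6 of the 7 genes were higher at 25 than at 19 dpp in KO, by 2.67-fold to 6.18-fold with TMM scaling, though Dmc1, Msh5 and Rnf212 turned sign relative to early prophase markers. Mlh3 alone did not pass there. In WT, Dmc1 was lower at 25 than at 19 dpp and Mlh3 higher, and the other 5 genes did not pass.

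Within KO the largest changes were in Meiob (log2 change 2.63, SE 0.429, adjusted p = 0.0112 in edgeR), Msh4 (2.61, SE 0.393, adjusted p = 0.0091) and Hfm1 (2.41, SE 0.320, adjusted p = 0.00788). Dmc1 changed by 1.63 (SE 0.327, adjusted p = 0.0182 in edgeR), Msh5 by 1.61 (SE 0.269, adjusted p = 0.0103) and Rnf212 by 1.42 (SE 0.222, adjusted p = 0.00917). Mlh3 had 35.6 and 51.0 CPM at 25 dpp, against 28.2 and 25.4 CPM at 19 dpp, a log2 change of 0.69 (95% interval 0.15 to 1.23, adjusted p = 0.0761 in edgeR). So 6 of 7 genes were higher at 25 dpp, where 10.2% of all genes tested were higher and 8.87% lower, or 19.1% either way.  Without KO replicate 1 of 19 dpp 0 of 7 passed in edgeR, with an unadjusted p under 0.05 in all 7, and 17 genes of the whole table passed. Without KO replicate 2 of 25 dpp 1 of 7 passed, Hfm1. Relative to the early prophase markers, which shifted the median of all genes to -2.07, Mlh3 passed as lower at 25 dpp (-1.52, adjusted p = 0.000759 in edgeR), Dmc1 (-0.41), Msh5 (-0.44) and Rnf212 (-0.71) were also negative, and Hfm1 (0.34), Msh4 (0.58) and Meiob (0.64) positive.

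Within WT the values above give 35.7 and 42.6 CPM of Dmc1 at 25 dpp, against 103 and 80.8 CPM at 19 dpp, a log2 change of -1.23 (SE 0.324, adjusted p = 0.0144 in edgeR). Mlh3 had 94.1 and 103 CPM at 25 dpp, against 47.4 and 69.1 CPM at 19 dpp, a log2 change of 0.76 (SE 0.231, adjusted p = 0.023 in edgeR). The ages did not overlap for either gene. Thus 1 of 7 genes was higher and 1 lower, where 34.9% of all genes tested were higher and 25.4% lower, or 60.3% either way. The log2 changes of the other 5 genes were between -0.45 (Msh5) and 0.11 (Msh4), both of which turn sign in another scaling (0.45 for Msh5 relative to Sertoli markers, -0.47 for Msh4 relative to early prophase markers). Neither call held without WT replicate 1 of 19 dpp, where Dmc1 changed by -1.05 (adjusted p = 0.0524 in edgeR) and Mlh3 by 0.51 (adjusted p = 0.13). Without WT replicate 1 of 25 dpp Dmc1 did not pass (adjusted p = 0.0839 in edgeR), and without WT replicate 2 of 25 dpp Mlh3 did not (adjusted p = 0.0744). With total counts as the scaling the 2 calls were Dmc1 and Msh5, both lower, as they were relative to early prophase markers, and relative to Sertoli markers Mlh3 and Rnf212, both higher. These scalings put the median of all genes at -0.51, -0.59 and 0.91 in that order.

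KO at 25 dpp was also set beside WT at 19 dpp. Age and genotype both differ there, so neither is measured alone. Dmc1 had 111 and 142 CPM in KO at 25 dpp, against 103 and 80.8 CPM in WT at 19 dpp, a log2 difference of 0.46 (95% interval -0.29 to 1.21, adjusted p = 0.602 in edgeR). Mlh3 had 35.6 and 51.0 CPM in KO at 25 dpp, against 47.4 and 69.1 CPM in WT at 19 dpp, a log2 difference of -0.43 (95% interval -0.97 to 0.11, adjusted p = 0.501 in edgeR). The log2 differences of the other 5 genes fell between these values. In edgeR 0 of 7 genes passed, and 0 had an unadjusted p under 0.05; DESeq2's Wald test and limma-voom also called 0 of them. Of all genes tested 18 passed in edgeR (0.0771%; 0.00856% higher and 0.0685% lower), 10 in limma-voom and 1262 in DESeq2.

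Levels per kb divide CPM by the merged length of all annotated exons of a gene. Ranks between genes depend on that length, and which isoforms were read was not measured. By this measure Dmc1, Meiob and Hfm1 had the 3 highest means of the 7 genes in each group. In KO at 19 dpp, however, Meiob, at 3.03 and 7.88 CPM per kb, and Hfm1, at 3.31 and 6.05, overlapped each other. Both also overlapped Mlh3, at 3.73 and 3.36 CPM per kb, and Msh5, at 2.00 and 3.54. Dmc1 ranked highest in KO at 19 dpp, at 16.7 ± 7.94 CPM per kb, in WT at 19 dpp, at 37.8 ± 6.51, and in KO at 25 dpp, at 51.9 ± 8.81 (SD, n = 2 each). In WT at 25 dpp it ranked 3 of 7, at 16.1 ± 2.00 CPM per kb, behind Hfm1 at 24.7 ± 3.46 and Meiob at 23.7 ± 3.85, which overlapped each other. In KO at 25 dpp Dmc1 was followed by Meiob at 34.0 ± 7.66 CPM per kb and Hfm1 at 24.9 ± 6.45, and the libraries of those 2 overlapped.

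Mlh3 ranked 4 of 7 in KO and 5 in WT at 19 dpp, and 6 in KO and 4 in WT at 25 dpp. It was at 3.55 ± 0.261 CPM per kb in KO and 7.71 ± 2.04 in WT at 19 dpp, and at 5.73 ± 1.44 in KO and 13.1 ± 0.858 in WT at 25 dpp (SD, n = 2 each). In WT at 25 dpp its libraries lay above those of Msh5, Rnf212 and Msh4, whereas in KO of that age they lay below those of Msh5 and overlapped those of Rnf212. Msh4 had the lowest mean of the 7 in 3 of the 4 groups, at 0.620 ± 0.317 CPM per kb in KO at 19 dpp, 4.93 ± 1.22 in WT at 19 dpp and 3.83 ± 0.968 in KO at 25 dpp. In WT at 19 dpp its libraries, at 4.07 and 5.79 CPM per kb, enclosed those of Rnf212, at 5.52 and 5.18. In WT at 25 dpp it was at 5.31 ± 0.852 CPM per kb and overlapped Rnf212, at 5.17 ± 0.572, and Msh5, at 6.10 ± 0.773. Its low rank rests on the exon length: in CPM the mean of Msh4 in WT at 19 dpp was 34.0, against 8.81 for Rnf212.

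**Figure D3:**
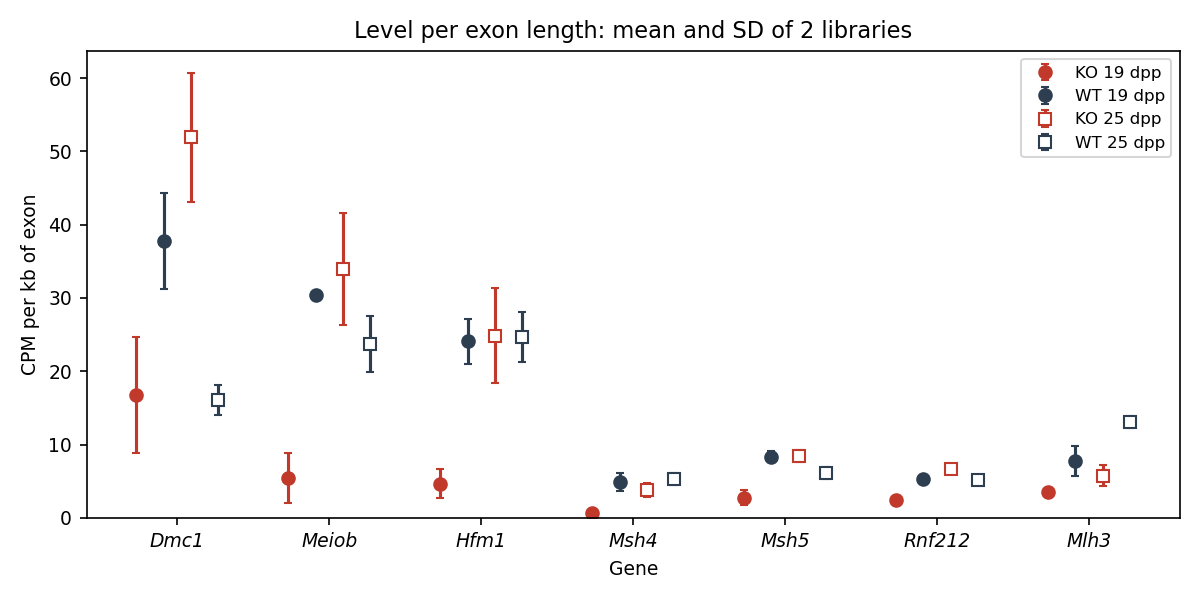
Mean CPM per kb of annotated exon (y axis) with SD of 2 libraries, for each gene and group; circles are 19 dpp, open squares 25 dpp, red KO and dark blue WT. Dmc1 is highest of the 7 in all groups but WT at 25 dpp, where it stands at 16.1.

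Ratios of raw counts between 2 genes of the same library do not depend on library scaling, and were taken for partner proteins. This choice was made after the values had been seen. Msh4 and Msh5 proteins work as a heterodimer, and at 19 dpp the KO libraries had 0.246 and 0.298 Msh4 counts per Msh5 count, against 0.571 and 0.924 in WT. At 25 dpp the ratio was 0.497 and 0.621 in KO, against 1.06 and 1.11 in WT. KO lay below WT at each age, by 1.42 on the log2 scale at 19 dpp and 0.96 at 25 dpp.

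Psmc3ip encodes HOP2, an accessory factor of DMC1. Dmc1 counts per Psmc3ip count were 4.17 and 5.30 in KO, against 2.79 and 1.43 in WT at 19 dpp, and 3.995 and 3.36 in KO, against 0.226 and 0.309 in WT at 25 dpp. Here KO lay above WT at each age.

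Meiob counts per Spata22 count were 3.82 and 5.43 in KO, against 7.43 and 5.30 in WT at 19 dpp, and 7.67 and 6.00 in KO, against 5.15 and 4.96 in WT at 25 dpp. The ratio of Dmc1 to Mlh3 counts was 0.961 and 2.14 in KO, against 2.18 and 1.17 in WT at 19 dpp, and 3.12 and 2.78 in KO, against 0.380 and 0.413 in WT at 25 dpp.

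An exact two-sided permutation test exchanged genotype labels within each age, which gives 36 arrangements and a smallest possible p of 0.0556, so the design cannot reach 0.05. Its statistic was the difference in log2 ratio, KO minus WT, averaged over both ages, so opposite differences at the ages cancel. The ratios of Msh4 to Msh5 and of Dmc1 to Psmc3ip were at that smallest value, or 0.111 after Benjamini-Hochberg adjustment over the 6 ratios computed, of which 4 are reported. The exact permutation p was 0.278 for Dmc1 to Mlh3, and 1 for Meiob to Spata22. The log2 differences at 19 and 25 dpp were -0.15 and 2.89 for Dmc1 to Mlh3, and -0.46 and 0.42 for Meiob to Spata22. These p-values measure the average and do not test either age alone.

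**Figure D4:**
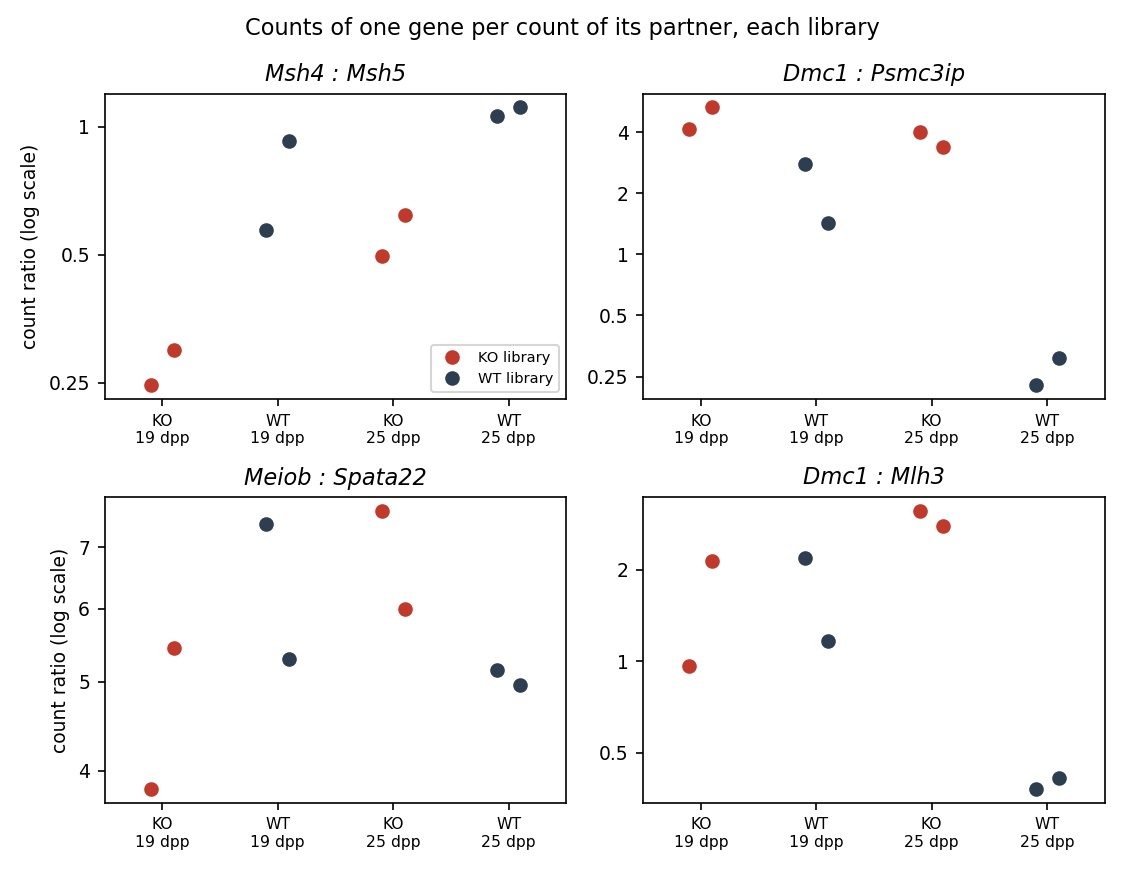
Counts of a gene per count of its partner (y axis, log scale) in each library, KO in red and WT in dark blue. KO lies below WT at both ages for Msh4 to Msh5, and above WT for Dmc1 to Psmc3ip.

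Per 1000 CPM of early prophase markers, Dmc1 at 19 dpp stood at 55.1 and 61.2 CPM in KO, against 44.6 and 29.3 CPM in WT. Its 25 dpp values were 45.1 and 42.5 CPM in KO, against 9.25 and 11.3 CPM in WT. The WT libraries of 25 dpp thus stood apart from the other 6. In WT the marker sum was higher at 25 than at 19 dpp, while the median marker changed by -0.01 on the log2 scale. Of the 18 markers 4 were higher and 3 lower, so the sum did not follow the typical marker. Of all genes tested, 34.9% were higher and 25.4% lower with age in WT. Mlh3 at 19 dpp stood at 57.3 and 28.5 CPM in KO, against 20.4 and 25.1 CPM in WT. For 25 dpp Mlh3 gave 14.5 and 15.3 CPM in KO, against 24.4 and 27.4 CPM in WT. By this measure Mlh3 in KO lay above WT at 19 dpp and below it at 25 dpp. Msh4 at 19 dpp stood at 5.54 and 6.54 CPM in KO, against 12.1 and 14.5 CPM in WT, again without overlap. For 25 dpp Msh4 gave 8.80 and 9.35 CPM in KO, against 8.40 and 10.8 CPM in WT, so that KO lay within the range of WT.

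Among 50 other genes of meiotic recombination that had an entry, 31 were lower and none higher in KO at 19 dpp by edgeR, where 13.2% of all genes tested were lower and 8.8% higher. The median log2 change was -0.89 against 0.00 over all genes. By role, 15 of 21 strand exchange genes, 2 of 4 single-strand binding genes, 5 of 7 crossover designation genes, 5 of 11 mismatch repair and resolution genes and 4 of 7 dissolution and helicase genes were lower. Without KO replicate 1 none passed at 19 dpp, with 31 at an unadjusted p under 0.05, and without WT replicate 2 there were 13. The direction turned when counts were scaled to early prophase markers, where 30 were higher and 1 lower. That scaling also put the median of all genes at 1.90. At 25 dpp 16 were higher and 14 lower in KO, with a median of -0.07 against -0.12 over all genes, where 26.1% of all genes were higher and 37.4% lower. The share called, 30 of 50, is thus near the 63.5% over all genes. The split became 6 higher and 15 lower without KO replicate 2 and 8 higher and 10 lower without WT replicate 1 of that age. Relative to Sertoli markers 43 were lower and none higher at that age, with the median of all genes at -1.56. Relative to early prophase markers 14 were higher and 4 lower, with that median at 0.30. Shares of all genes called in the marker scalings are not reported here. The split was 22 higher and 8 lower with total counts, and 12 higher and 18 lower with DESeq2 size factors.

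The strand exchange genes held examples of both patterns. Mcmdc2, an MCM-like protein needed for homolog pairing and repair, changed by -2.47 on the log2 scale at 19 dpp (5.33 CPM in KO and 29.8 CPM in WT, adjusted p = 0.00714 in edgeR) and by 0.14 at 25 dpp (adjusted p = 0.693). Tex15, needed for loading recombinases, resembled Dmc1, with -0.71 at 19 dpp (adjusted p = 0.0312 in edgeR) and 1.26 at 25 dpp (515 CPM in KO and 215 CPM in WT, adjusted p = 0.00108). Zswim7 was lower at both ages, as was Mlh3, with -1.02 (adjusted p = 0.0141 in edgeR) and -1.31 (adjusted p = 0.00128). Of the single-strand binding genes, Spata22, the partner of Meiob, changed by -2.12 at 19 dpp (adjusted p = 0.0137 in edgeR) and 0.13 at 25 dpp (adjusted p = 0.791), and Rpa1, a subunit of RPA, by -0.49 (adjusted p = 0.0813) and -2.10 (89.5 CPM in KO and 383 CPM in WT, adjusted p = 0.000308). Rpa3, another subunit, changed by -0.16 at 19 dpp (adjusted p = 0.676 in edgeR) and by 0.81 at 25 dpp (12.2 CPM in KO and 6.95 CPM in WT, adjusted p = 0.0184), a call lost without WT replicate 1, KO replicate 1 or KO replicate 2 of 25 dpp. Of the 4 genes of this role 2 were higher and 1 lower in KO at 25 dpp.

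Among crossover designation genes, Cntd1, which encodes a cyclin-like factor needed for crossover formation, had the largest change at 19 dpp, -3.83 on the log2 scale (10.02 CPM in KO and 143 CPM in WT, adjusted p = 0.00811 in edgeR), and did not pass at 25 dpp (-1.24, adjusted p = 0.0527). Its binding partner gene Prr19 changed by -1.47 (adjusted p = 0.0136 in edgeR) and -2.66 (13.7 CPM in KO and 86.2 CPM in WT at 25 dpp, adjusted p = 0.000432). Tex11, a factor of the same stage as Msh4, changed by -0.96 (adjusted p = 0.0539 in edgeR) and by 1.46 (104 CPM in KO and 37.6 CPM in WT at 25 dpp, adjusted p = 0.00414). Among mismatch repair and resolution genes, Slx4, a scaffold of structure-specific nucleases, changed by -1.01 (adjusted p = 0.0246 in edgeR) and -2.53 (64.4 CPM in KO and 372 CPM in WT at 25 dpp, adjusted p = 0.000357). Of the dissolution and helicase genes, Rmi1, a partner of the BLM helicase, changed by -0.99 (adjusted p = 0.00814 in edgeR) and -0.97 (adjusted p = 0.00133), and the helicase gene Brip1 by -0.73 (adjusted p = 0.0476) and 1.41 (adjusted p = 0.00127).

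**Figure D5:**
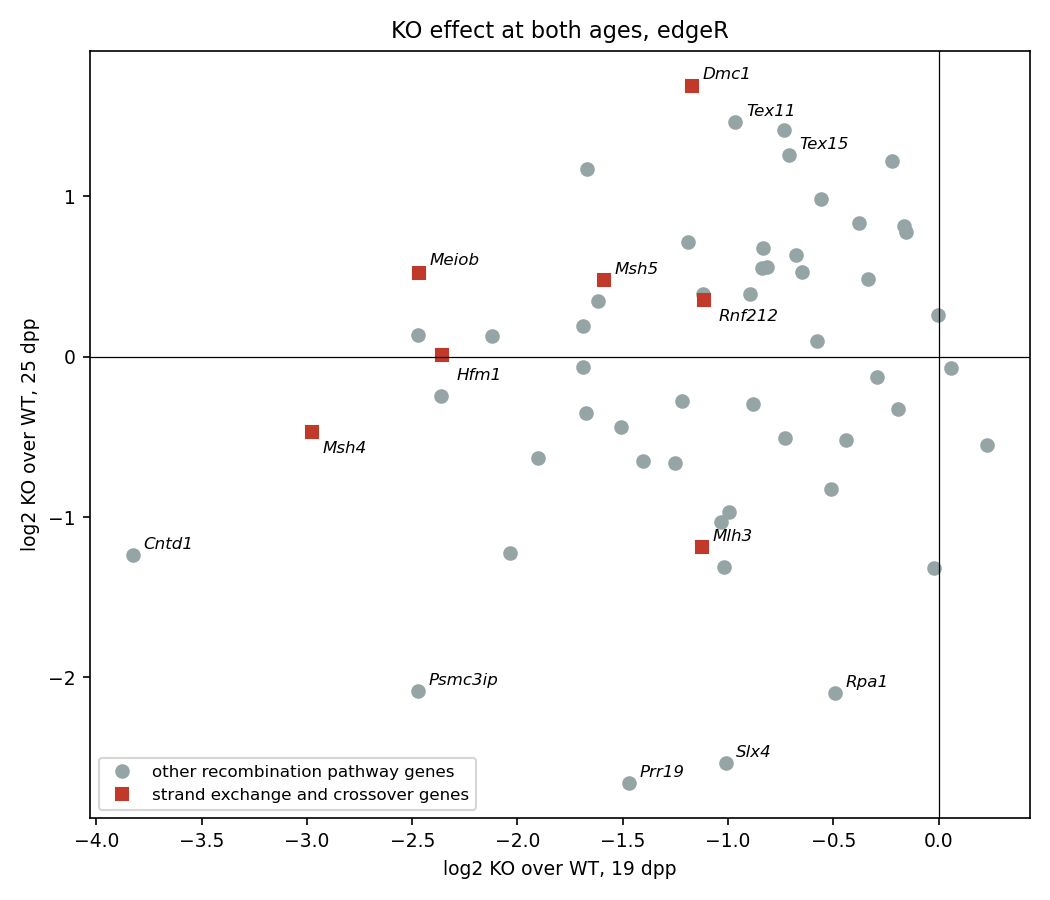
Log2 change of KO over WT at 19 dpp (x axis) and at 25 dpp (y axis) for the 7 genes (squares) and 50 other recombination genes (circles), from edgeR with TMM scaling. Most points lie left of 0 at 19 dpp and on both sides of 0 at 25 dpp, with Dmc1 near Tex11 and Tex15 at the top and Mlh3 below 0. Relative to early prophase markers most points would lie right of 0 at 19 dpp, as would the median of all genes.

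With age, 29 of these 50 genes were higher and none lower at 25 than at 19 dpp in KO, and 12 were higher and 13 lower in WT. Of all genes tested, 10.2% were higher and 8.87% lower in KO, and 34.9% were higher and 25.4% lower in WT, so that the 25 of 50 called in WT lie below the 60.3% over all genes. The KO count was 0 without KO replicate 1 of 19 dpp, 3 without KO replicate 2 of 25 dpp, and 19 each without KO replicate 2 of 19 dpp or KO replicate 1 of 25 dpp. In WT 13 passed without WT replicate 1 of 19 dpp and 15 without WT replicate 1 of 25 dpp. The KO effect was higher at 25 dpp in 24 of them and lower in 4, with a median of 1.02 against -0.02 over all genes, of which 7.68% were higher and 11.4% lower. These 28 calls became 8 without KO replicate 1 of 19 dpp, and, at 25 dpp, 11 without KO replicate 2, 12 without KO replicate 1 and 16 without WT replicate 1. Relative to early prophase markers, 1 was higher and 33 lower with age in KO, where the median of all genes was also shifted, to -2.07. In that scaling the KO effect was lower in 11 and higher in none, with the median of all genes at -1.56. Shares of all genes called in it are not reported here.

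Among 11980 genes of at least 5 CPM on average, the profiles over the 8 libraries most like the mean profile of the 7 genes were those of Oip5 (Pearson r = 0.995), Mcmdc2 (0.995), Hormad1 (0.994), Sycp3 (0.994) and Rnf212b (0.992). The same 5 led when genes down to 1 CPM were admitted, and none of them led by Spearman's rho. Sycp3 and Hormad1 are also among the 18 early prophase markers. Taken singly, the closest profiles were Mms22l for Dmc1, Sycp3 for Meiob, Hormad1 for Hfm1, Tdrkh for Msh4, Tc2n for Msh5, Rad1 for Rnf212 and Ttc30a1 for Mlh3, with r between 0.986 and 0.998. Mms22l had 48.8 and 52.6 CPM in KO, against 26.8 and 29.8 CPM in WT at 25 dpp, and Ttc30a1 12.04 and 27.3 CPM in KO, against 73.4 and 79.1 CPM in WT. Between members of the 7, r ran from -0.08 for Dmc1 with Mlh3 to 0.990 for Hfm1 with Msh4 and for Meiob with Msh5. These correlations describe 8 libraries that share 4 group means and their scaling.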

How the data were processed

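RNA of whole testes was measured in 8 libraries, 2 for each genotype and age. The deposited values are raw counts per gene, 1 table per library. Per the submitters' processing notes, the authors used STAR 2.7.0a and featureCounts 1.5.1 with mm10, and per the labels' protocols Trizol RNA, cleared of DNA with DNase, went into a stranded mRNA library kit. The annotation, the strand setting and the handling of multiply aligned reads are not given in the sources used here. The 1205 repeat entries (4.10% to 5.68% of counts) were left out. Scaling was by TMM, and low genes were removed by filterByExpr with the groups given, leaving 23353 genes. They were fitted in edgeR 4.0.16 (R 4.3.3) by robust quasi-likelihood with 1 mean per group and 4 residual degrees of freedom. P-values were adjusted over all genes tested by Benjamini-Hochberg, with 0.05 as the threshold. The SE is the absolute log2 change over the square root of F. Levels per kb used the merged length of all exons that GENCODE M21 annotates for a gene. The fit was also run on simulated counts in which few genes changed, as many up as down. Such counts cannot check the scaling on which directions depend here, and the outcome is not reported here. Intervals and floors cover the fit or counting error only.

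The 7 genes, the recombination list and the marker lists were chosen with earlier results of these data known. All 7 genes are named. The recombination list had 54 genes, of which Brme1, Firrm, Shoc1 and Spo16 were not analysed here. Of it, the rule named per role the gene with the lowest p in each direction at each age, the gene of highest CPM, and paralogs of the 7 genes, 21 in all. The text gives 12 of these, a reduction made after the values were seen, as was the choice of Psmc3ip, and some results of this list are not reported here. Similar profiles were ranked by Pearson r on log2 CPM (prior count 2) among genes of at least 5 CPM with no clone name. Alternatives were DESeq2 size factors, total counts, Sertoli or early prophase marker sums as scaling, no filter, DESeq2 1.42.0 with its Wald test, voom in limma 3.58.1 (limma-voom), a replicate block, only the groups compared, and leaving out each library.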

Additional observations from a re-analysis of the deposited data

Results flagged for a closer look

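For 6 of the 7 genes the KO effect differed between the ages by a test of the difference itself. On the log2 scale the effect at 25 dpp minus that at 19 dpp was 2.99 for Meiob, 2.86 for Dmc1, 2.5 for Msh4, 2.37 for Hfm1, 2.06 for Msh5 and 1.47 for Rnf212. Of the 6, Dmc1 alone passed at each age separately, lower in KO at 19 dpp and higher in KO at 25 dpp, with the sign at 19 dpp turned relative to early prophase markers.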

How the results depend on the processing

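Counts of the 7 genes called moved by more than 1.5 times with marker scaling, with total counts, when only the groups compared were fitted and with single libraries left out. Relative to early prophase markers 2 were called for KO against WT at 19 dpp (1 higher, 1 lower), 1 at 25 dpp, 1 for age in KO (lower, against 6 higher) and 3 for the difference between the ages. Relative to Sertoli markers 5 were called at 25 dpp, all lower, and 1 for the difference between the ages. At 25 dpp 4 were called with total counts, and 4 when only the groups compared were fitted (3 higher, 1 lower each). Of the other recombination genes, scaling to Sertoli markers called 49 at 19 dpp, all lower, and 5 for the difference between the ages. Scaling to early prophase markers called 31 at 19 dpp (30 higher), 18 at 25 dpp, 34 for age in KO (33 lower) and 11 for the difference (all lower). Both marker scalings also shifted the medians of all genes, as given above. At 25 dpp their split of 16 higher and 14 lower became 12 and 18 with DESeq2 size factors.

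Leaving out each library in turn called 0 to 6 of the 7 genes at 19 dpp, 2 to 2 at 25 dpp, 0 to 2 for age in WT, 0 to 7 for age in KO, 2 to 6 for the difference between the ages and 0 to 0 for KO at 25 dpp against WT at 19 dpp. Of the 50 other genes it called 0 to 30 at 19 dpp, 18 to 31 at 25 dpp, 13 to 25 for age in WT, 0 to 28 for age in KO and 8 to 28 for the difference.

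Among changes given for single genes, signs turned as follows. At 19 dpp, relative to early prophase markers, the log2 changes of KO over WT were 0.65 for Dmc1, 0.27 for Msh5, 0.84 for Rnf212, 0.91 for Mlh3, 1.25 for Tex15, 0.90 for Zswim7, 1.85 for Rpa3, 1.47 for Rpa1, 0.88 for Tex11, 0.47 for Prr19, 1.04 for Slx4, 0.98 for Rmi1 and 1.18 for Brip1. At 25 dpp, relative to Sertoli markers, they were -0.89 for Meiob, -1.39 for Hfm1, -0.94 for Msh5, -1.08 for Rnf212, -1.26 for Mcmdc2, -0.17 for Tex15, -1.26 for Spata22, -0.59 for Rpa3 and -0.0105 for Brip1. For age in KO, relative to early prophase markers, they were -0.41 for Dmc1, -0.44 for Msh5, -0.71 for Rnf212 and -1.52 for Mlh3. In that scaling the difference between the ages was -0.0567 for Rnf212. That of Mlh3 was 0.47 with total counts, 0.0249 without a filter and -0.36 to 0.19 with libraries left out. Hfm1 at 25 dpp was -0.10 with DESeq2 size factors and with DESeq2's Wald test, -0.0147 in limma-voom, -0.008 with the replicate block and -0.27 to 0.27 with libraries left out. With libraries left out Mcmdc2 was -0.0445 to 0.41 and Spata22 -0.33 to 0.50 at 25 dpp. Dmc1 in KO at 25 dpp against WT at 19 dpp was -0.0447 relative to Sertoli markers. For age in WT, Msh4 was -0.40 with total counts, -0.47 relative to early prophase markers and -0.13 to 0.38 with libraries left out, Hfm1 -0.13 to 0.17 with libraries left out, and Msh5 0.45 relative to Sertoli markers. Hfm1 in KO at 25 dpp against WT at 19 dpp was -0.24 to 0.29 with libraries left out. The cause was not tested.

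Whether the replicate numbers pair the libraries is not settled. Deviations of same-numbered libraries from their group means correlated at -0.0877 to 0.361 over the 6 pairs of groups, positive in 3. The highest was for WT at 19 dpp with KO at 25 dpp. The replicate block called 7 of the 7 genes at 19 dpp, 2 at 25 dpp and 6 for the difference between the ages, the numbers found without it. With 2 libraries a group, the SE of the 7 genes at 19 dpp was between 0.221 and 0.427 on the log2 scale, and a group left with 1 library is assumed to vary like the others.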
